A study of Caenorhabditis elegans with 6 samples.

Results

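The nuclear hormone receptor genes of *C. elegans* were followed in mid-aged worms with impaired mRNA decapping. The genes were chosen by identifier alone, as all rows of the deposited values with a WormBase gene number from the first to the last of the contiguous *nhr* block, which begins with *nhr-1* (WBGene00003600) and ends with WBGene00003725. Of the 126 identifiers in the block, 117 had a row, among 17397 genes in all. The samples were 3 populations of wild-type N2 worms (wt) and 3 populations of *dcap-1(tm3163)* worms, which carry an outcrossed reduction-of-function allele of the decapping activator DCAP-1 and are called *dcap-1(rf)*. All were whole adult worms on day 9 of adulthood, grown at 20 °C on UV-killed *E. coli* OP50 with 10 µg/mL FUDR, a drug that stops progeny from growing, and each sample pooled 200 to 300 worms on its own Affymetrix *C. elegans* Genome Array. Every value below is a log2 expression value made by the authors with RMA, 1 per gene and array, and a log2 fold change is the *dcap-1(rf)* mean minus the wt mean.

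Nuclear hormone receptors are transcription factors with a zinc finger DNA-binding domain and a ligand-binding domain, so that small lipophilic molecules such as steroids and fatty acids can set the activity of their target genes. The family is greatly expanded in *C. elegans*, where most members derive from an ancestor related to HNF4 and only a few have direct counterparts in insects and vertebrates. In worms these receptors are known for the control of fat metabolism and the fasting response, detoxification, moulting and development. Decapping removes the protective cap of an mRNA and opens it to decay from the 5′ end, so that transcripts turned over by this route can build up when DCAP-1 is impaired.

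The mutant arrays carried less signal for *dcap-1* itself, which averaged 5.33 ± 0.09 in the wt arrays and 4.56 ± 0.08 in theirs (SD, n = 3 each), with a log2 fold change of -0.77 (adjusted p = 0.00469, limma with Benjamini-Hochberg adjustment over all genes tested). Where the probes for this gene lie with respect to the deletion was not analysed here. The median of all genes lay between 2.18 and 2.24 on the 6 arrays, and Pearson's r between arrays lay between 0.957 and 0.986 across the *nhr* genes, which are not independent replicates. The arrays give no detection calls, so a low value may or may not exceed background, and the number of arrays limits the precision. Of 43 tissue marker genes in 7 lists, 14 had a name in the sources used, and those names come mostly from genes with positive log2 fold changes. The named markers of intestine, muscle, neurons and hypodermis had averages from 1.89 for the muscle gene *unc-22* to 7.39 for the neuronal gene *snb-1*, the sperm gene *spe-11* lay lower, and no female germline marker was named. The intestinal markers *vha-6* and *ifb-2* were upregulated, by 0.64 (adjusted p = 0.0123, limma) and 0.74 (adjusted p = 0.0296, limma), and the intestinal markers *elt-2* and *act-5* had log2 fold changes of 0.20 and 0.25 that did not pass. No other named marker passed, and the markers without a name were not examined. All 14 named markers had positive values, a direction that the source of their names largely fixed, as it favoured the calls. The values were 0.62 for hypodermal *col-19*, 0.39 for hypodermal *elt-3* and 0.25 for pharyngeal *tnc-2*. Neuronal *snb-1* had 0.16 and *spe-11* 0.25. The groups were separate for *vha-6*, *ifb-2*, *elt-2*, *act-5*, *col-19* and *snb-1* and overlapped for the other named markers. The 5 named body wall muscle genes had 0.17 to 0.29, each lowest among the mutant arrays on replicate 3. The part of these tissue markers in the *nhr* values was not tested. In whole worms, a changed number of cells of a type and a changed amount of RNA per cell cannot be told apart.

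The array values of the receptors were mostly in the lower part of the scale. Probes for different genes differ in how strongly they bind, so that these values do not rank the genes by amount of transcript and serve here to describe the signal and the filter. The averages over the 6 arrays ran from 0.63 to 5.84, with a median of 2.19 where the median of all genes was 2.20. An average above the upper quartile of all genes, 4.58, was found for 5 of 117 members (4.27%), a share that is 25% over all genes by construction. A total of 32 members had an average above 3, 9 above 4 and 3 above 5. The analysis left out the 25% of genes with the lowest averages, as the methods describe, and this removed 23 of the 117 members (19.7%) and left 94 to be tested. The members left out had averages between 0.63 and 1.31 and log2 fold changes between -0.19 and 0.17.

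**Figure D1:**
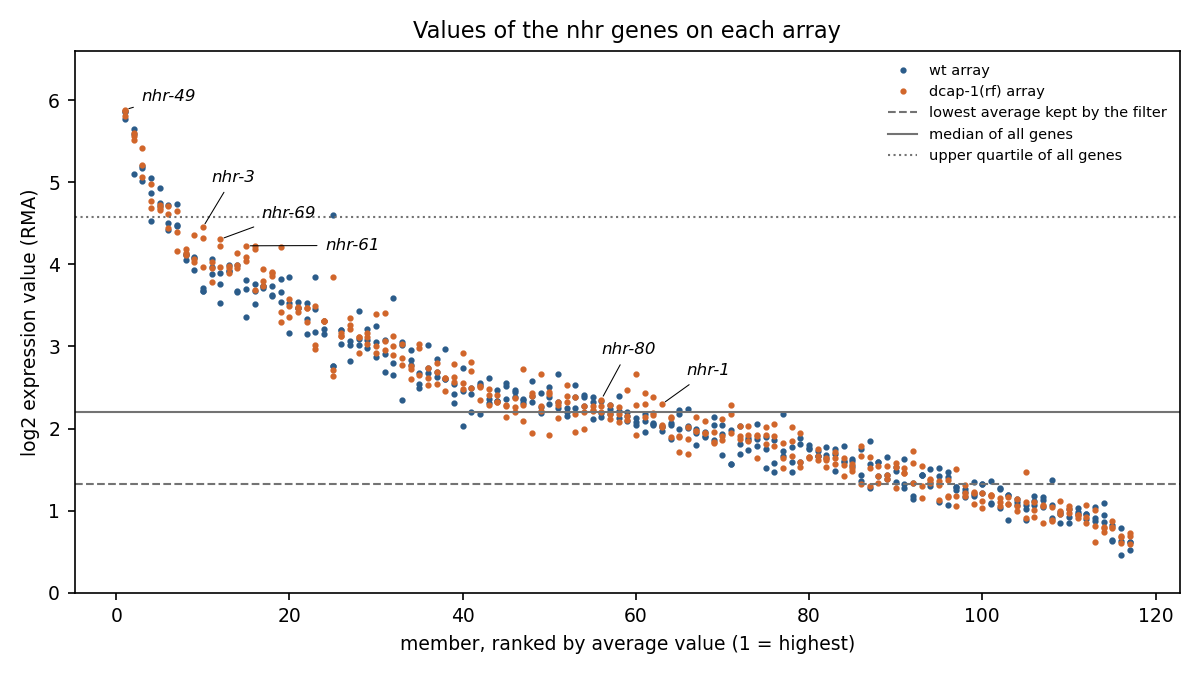
Log2 expression value (vertical axis) of each of the 117 *nhr* genes on the 3 wt arrays (blue) and the 3 *dcap-1(rf)* arrays (orange), with the genes ranked by their average (horizontal axis); horizontal lines mark the lowest average kept by the filter at 1.33, the median of all genes at 2.20 and their upper quartile at 4.58. Points of both colours mingle along the whole ranking, and *nhr-49* stands at its head with values near 5.84.

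*nhr-49* had the highest array value of the members. It encodes a receptor related to HNF4 that is known for the response to fasting and for the transcription of fatty acid desaturase and beta-oxidation genes, a role often likened to that of PPARα in mammals. Its values were 5.77, 5.86 and 5.87 in wt and 5.87, 5.80 and 5.88 in *dcap-1(rf)*. The groups overlapped, and the log2 fold change was 0.02 (standard error, SE, 0.07, 95% interval from -0.15 to 0.19), so that the interval lay well short of a doubling or a halving. *nhr-80*, which cooperates in the transcription of desaturase genes and is known for the long life of worms without a germline, had values of 2.19, 2.14 and 2.33 in wt and 2.20, 2.28 and 2.35 in *dcap-1(rf)*. Its groups overlapped as well, with a log2 fold change of 0.06 (95% interval from -0.14 to 0.25). *nhr-1* had 2.03, 2.02 and 1.97 in wt against 2.02, 2.30 and 2.04 in *dcap-1(rf)*, with overlapping groups and a log2 fold change of 0.11 (95% interval from -0.10 to 0.33).

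The next highest averages belonged to WBGene00003656 at 5.50, WBGene00003636 at 5.18, WBGene00003619 at 4.81 and WBGene00003676 at 4.74, which have no name in the sources used. Their log2 fold changes were 0.11, 0.10, -0.00 and -0.11 in that order, with SEs between 0.08 and 0.14. In each of these genes the groups overlapped, so none of the 5 members with the highest array values had separate groups. At the other end, WBGene00003662, WBGene00003665, WBGene00003717, WBGene00003629 and WBGene00003683 had averages of 0.63, 0.64, 0.76, 0.87 and 0.88 and were not tested.

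No *nhr* gene passed the test for differential expression. At an adjusted p under 0.05 from limma, 0 of the 94 tested members were called, where 1.62% of all 13047 genes tested were (211 genes, of which 190, or 1.46% of those tested, were upregulated). The smallest adjusted p among the members was 0.0881. At an unadjusted p under 0.05 there were 15 members (16%) beside a background of 13.8% over all genes tested. The family thus stood near the background on this looser measure. Of those 15, 13 were higher in *dcap-1(rf)* (13.8% of members, background 7.59%) and 2 were lower (2.13% of members, background 6.22%). With wt replicate 1 left out the 15 became 8, and with wt replicate 2 left out they became 6. With any other array left out they were 11 to 16. The share of all genes at this p was not worked out for these fits. Calls over all genes at the adjusted threshold fell from 211 to 94 without wt replicate 1 and to 84 without wt replicate 2. The wt and mutant arrays were fully separate in 14 members (14.9%, background 18.6%), 8 of them higher (background 8.93%) and 6 lower (background 9.67%).

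**Figure D2:**
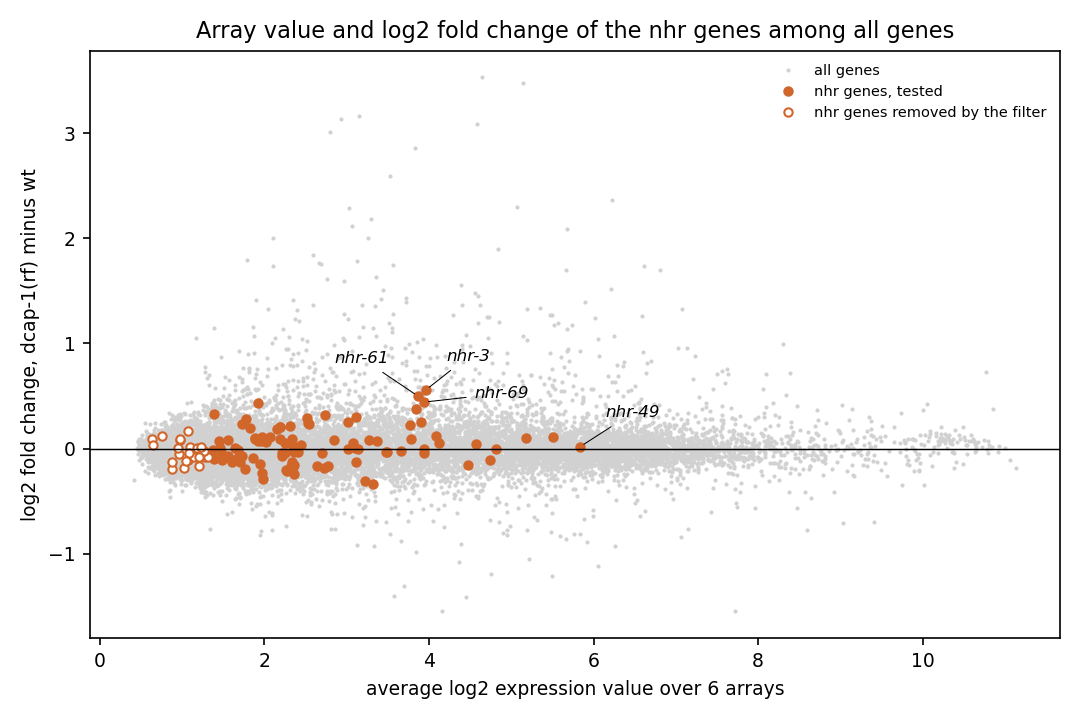
Average log2 expression value over the 6 arrays (horizontal axis) and log2 fold change of *dcap-1(rf)* against wt (vertical axis), for all genes (grey), the 94 tested *nhr* genes (filled orange) and the 23 removed by the filter (open orange). The *nhr* genes lie between -0.33 and 0.56, while all genes tested reach from -1.55 to 3.53.

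The log2 fold changes of the tested members were small. They ran from -0.33 to 0.56 with a median of 0.01 and quartiles of -0.09 and 0.11, beside a median of -0.02 and quartiles of -0.11 and 0.08 over all genes tested. In sign the members divided into 50 higher and 44 lower (53.2% higher), beside 44.6% higher over all genes tested. With the genes removed by the filter included, 60 of 117 were higher and the median was 0.00. The upper side reached further than the lower: 12 members lay above 0.25 and 3 below -0.25, or 12.8% and 3.19%, where all genes tested gave 8.39% and 6.13%. Only *nhr-3* exceeded 0.5 in size. Above 0.5 lay 1.06% of members, beside 2.84% of all genes tested, and below -0.5 lay 0%, beside 0.84%. The larger share of members than of all genes above 0.25 was thus not seen above 0.5. The 95% interval lay inside -1 to 1, that is, short of a doubling or a halving, for 93 of the 94 members. This was 98.9% of them, beside 97.2% over all genes tested. The interval lay inside -0.5 to 0.5 for 70 members (74.5%, beside 80.5% over all genes tested). These intervals are not adjusted for the number of genes. The exception at the wider bound was WBGene00003616, which varied most between replicates. The family's median relative to the wt mean lay between -0.01 and 0.02 on every array, with an SD of 0.01 between arrays of a group.

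**Figure D3:**
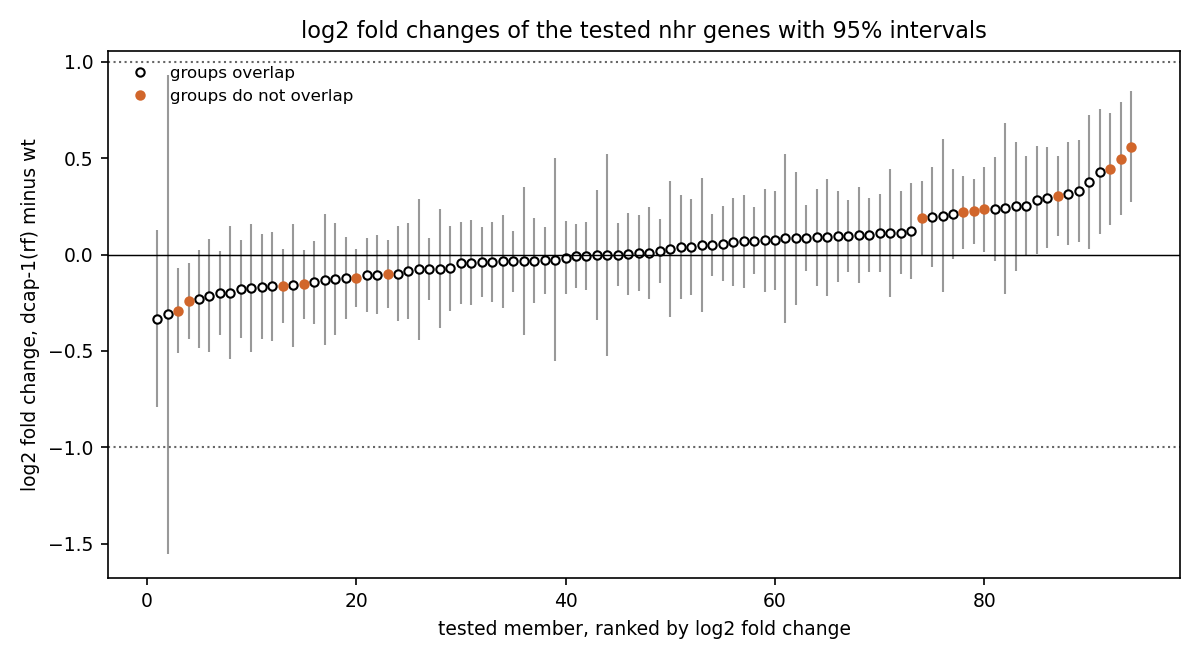
Log2 fold change of *dcap-1(rf)* against wt (vertical axis) for the 94 tested *nhr* genes ranked by it (horizontal axis), with lines for the 95% interval from limma, filled points where the groups do not overlap and dotted lines at -1 and 1. The interval of 93 genes stays between the dotted lines, and the widest one, of WBGene00003616, passes the lower line.

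Names for 21 of the members came from the study's supplementary gene list, and 3 came with the choice of members (*nhr-1*, *nhr-49* and *nhr-80*). Only the beginning of that list was used here: it opens with genes the study selected in either direction and goes on in falling order of fold change. A name from it therefore goes, for members of the block, with a log2 fold change of at least 0.19 in these same values, and no member without a name exceeded 0.17. The other 93 are given by identifier where they are mentioned.

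*nhr-3* had the largest log2 fold change of the family. Its values were 3.68, 3.71 and 3.67 in wt and 4.32, 4.45 and 3.97 in *dcap-1(rf)*. All 3 mutant arrays lay above all wt arrays, by 0.26 at the nearest, and replicate 3 was the lowest of the mutant arrays. The log2 fold change was 0.56, or 1.47-fold (SE 0.12, 95% interval from 0.27 to 0.85, limma adjusted p = 0.0881), and the gene was not called. Without *dcap-1(rf)* replicate 3 it was called, with a log2 fold change of 0.70 and limma adjusted p = 0.0105, and it was also called with 1 or 2 components of the residuals as covariates (adjusted p = 0.0187 and 0.0168, limma); over all alternatives its adjusted p ran from 0.0105 to 0.283.

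*nhr-61* had 3.80, 3.35 and 3.70 in wt against 4.04, 4.09 and 4.23 in *dcap-1(rf)*, again with separate groups, the wt replicate 2 being the lowest array. Its log2 fold change was 0.50 (SE 0.12, limma adjusted p = 0.129). *nhr-69*, which in worms is known to act with the SMAD protein DAF-8 in repressing a potassium channel gene, had 3.76, 3.89 and 3.52 in wt and 4.30, 4.23 and 3.97 in *dcap-1(rf)*. The nearest arrays of its groups were 0.08 apart, and the log2 fold change was 0.44 (SE 0.13, limma adjusted p = 0.173). Neither gene was called under any alternative, with adjusted p from limma of 0.104 or more for *nhr-61* and 0.0527 or more for *nhr-69*.

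**Figure D4:**
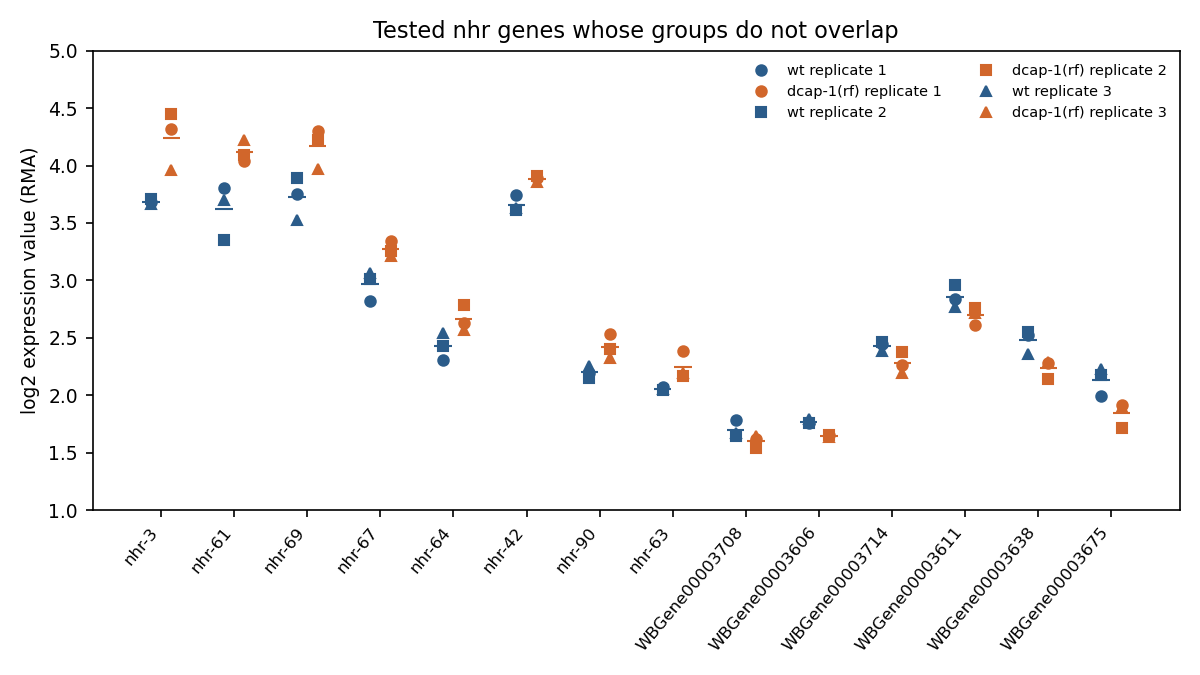
Log2 expression value (vertical axis) on each array for the 14 tested *nhr* genes whose groups do not overlap, ordered by log2 fold change, with wt in blue, *dcap-1(rf)* in orange, replicates 1, 2 and 3 as circles, squares and triangles, and bars at the group means. The separation is widest for *nhr-3* and *nhr-61*, and for WBGene00003708 the nearest arrays of the groups all but touch.

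Among the listed receptors with direct counterparts in insects or vertebrates, *nhr-67* was the only one with a name here. It is the worm counterpart of Tailless and TLX and is known for the development of the anchor cell and of neurons. Its values were 2.82, 3.01 and 3.06 in wt and 3.35, 3.26 and 3.21 in *dcap-1(rf)*, with separate groups and a log2 fold change of 0.31 (SE 0.09, limma adjusted p = 0.186). *nhr-64*, an HNF4-related receptor whose loss is known to alter fat storage, had 2.31, 2.43 and 2.54 in wt and 2.63, 2.79 and 2.56 in *dcap-1(rf)*. Its groups were separate by 0.02, with a log2 fold change of 0.24 (limma adjusted p = 0.332). *nhr-42* showed the least spread of this set, at 3.74, 3.61 and 3.63 in wt and 3.89, 3.91 and 3.86 in *dcap-1(rf)*, and its log2 fold change was 0.22 (SE 0.07, limma adjusted p = 0.228). *nhr-90* and *nhr-63* also had separate groups, with log2 fold changes of 0.22 and 0.19.

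Other members with a positive log2 fold change had overlapping groups. *nhr-31*, which is known for the growth and upkeep of the excretory cell through genes of the vacuolar ATPase, had 3.67, 3.52 and 3.76 in wt and 4.18, 4.22 and 3.68 in *dcap-1(rf)*. Replicates 1 and 2 of the mutant were above every wt array and replicate 3 was not, and the log2 fold change was 0.38 (SE 0.15, limma adjusted p = 0.327). Without *dcap-1(rf)* replicate 3 the log2 fold change was 0.55 and *nhr-31* was called (limma adjusted p = 0.0426). Its limma adjusted p lay between 0.0426 and 0.623 across the alternatives, and it was called under no other. Without that array 306 of all genes tested were called, beside 211 with all arrays. *nhr-45*, known for the induction of detoxification genes when mitochondria are disturbed, had 2.49, 2.55 and 2.68 in wt and 2.98, 3.03 and 2.66 in *dcap-1(rf)*, with the same replicate lowest and a log2 fold change of 0.32 (limma adjusted p = 0.281). Among the 13 members that were higher at an unadjusted p under 0.05, *dcap-1(rf)* replicate 3 was the lowest mutant array in 9; over all genes higher at that p it was so in 42.4%.

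*nhr-121* had the largest log2 fold change among the members with overlapping groups, at 1.57, 1.57 and 1.98 in wt and 2.17, 1.95 and 2.28 in *dcap-1(rf)*, a difference of 0.43 (SE 0.14, limma adjusted p = 0.231). Apart from *nhr-31* and *nhr-45*, described above, the next were *nhr-115* at 0.33, *nhr-84* at 0.29, *nhr-18* at 0.28, *nhr-4* at 0.25 and *nhr-79* at 0.25. *nhr-35*, *nhr-58*, *nhr-134*, *nhr-11* and *nhr-53* had log2 fold changes between 0.19 and 0.24. The array averages of *nhr-115* and the genes listed after it ran from 1.38 for *nhr-115* to 3.90 for *nhr-4*. All but *nhr-4* and *nhr-79* lay below 3.

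**Figure D5:**
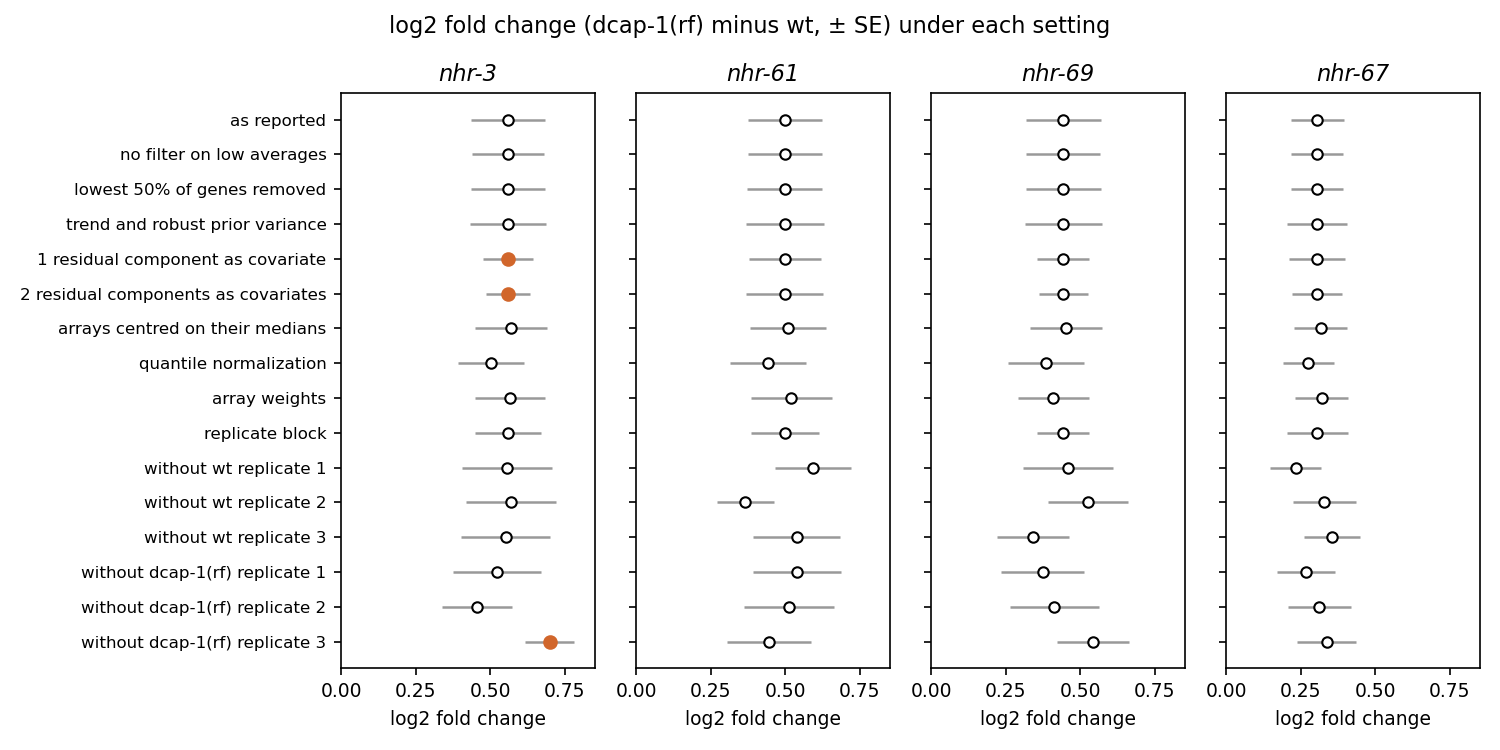
Log2 fold change of *dcap-1(rf)* against wt (horizontal axis, with lines for the standard error) of the 4 *nhr* genes with the smallest p-values, under the reported analysis, 9 alternatives with all arrays and 6 that leave out an array (vertical axis); filled points have an adjusted p under 0.05. *nhr-3* is filled in 3 rows and the other genes in none.

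On the lower side, 2 members had an unadjusted p under 0.05 from limma, and their groups were separate. WBGene00003675 had 2.00, 2.18 and 2.22 in wt and 1.91, 1.71 and 1.90 in *dcap-1(rf)*, which gave a log2 fold change of -0.29 (SE 0.09, 95% interval from -0.51 to -0.07, limma adjusted p = 0.235). WBGene00003638 had 2.52, 2.55 and 2.36 in wt and 2.28, 2.14 and 2.29 in *dcap-1(rf)*, which gave a log2 fold change of -0.24 (SE 0.08, limma adjusted p = 0.271). All mutant arrays of both genes lay below all wt arrays. The other tested members with separate groups on this side were WBGene00003611 (-0.16), WBGene00003714 (-0.15), WBGene00003606 (-0.12) and WBGene00003708 (-0.10). WBGene00003629 (-0.19) and WBGene00003682 (-0.05), which the filter removed, also had separate groups. The largest negative log2 fold change of the family, -0.33 for WBGene00003607, came with overlapping groups, at 3.45, 3.17 and 3.85 in wt and 3.49, 3.02 and 2.97 in *dcap-1(rf)*.

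The spread between replicates was similar to that of other genes for most members. The median SD of the tested members was 0.12 in wt and 0.11 in *dcap-1(rf)*, beside 0.10 and 0.11 over all genes tested. WBGene00003616 was the exception, with 2.76, 2.76 and 4.60 in wt and 2.71, 2.64 and 3.85 in *dcap-1(rf)*. Replicate 3 was the high array in both strains, and the log2 fold change of -0.31 had an SE of 0.53. With only wt replicate 3 left out the direction turned, to 0.30, while the high mutant replicate 3 stayed in. On replicates 1 and 2 the mutant values, 2.71 and 2.64, lay below the wt value of 2.76. In 21 of the tested members (22.3%) at least 2 arrays shared a value to the last decimal deposited, as in 20.8% of all genes tested; WBGene00003621 had the same value, 3.31, on 4 of the 6 arrays, among them all 3 of *dcap-1(rf)*.

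The 21 members named from the supplementary list lie on all chromosomes of the WBcel235 assembly, 10 of them on V, 4 on IV, 3 on X, 2 on I and 1 each on II and III. The members without a name had no position here, so these counts cannot be set against the distribution of the family. Of the genes with the largest log2 fold changes, *nhr-3* lies on X from 14558504 to 14561423, *nhr-61* on II from 14816136 to 14818543 and *nhr-69* on I from 9879183 to 9881504. *nhr-49* lies on I from 9869718 to 9874626, so that only 4556 bases separate it from *nhr-69*. The log2 fold changes of these neighbours were 0.02 and 0.44, and the difference between the genes was not tested. On V, *nhr-18* (2227203 to 2228977), *nhr-134* (2231223 to 2233382), *nhr-115* (2292540 to 2294800) and *nhr-183*, a receptor gene with a later identifier (2262489 to 2264634), lie within 67.6 kb. Their log2 fold changes were 0.28, 0.21, 0.33 and 0.38, at averages between 1.38 and 2.19, and none was called. Genes without a name had no position here, so receptor genes with lower log2 fold changes in this stretch could not appear. The shared direction of these neighbours was thus set by the list that names them.

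Of the receptor genes with later identifiers, 6 had a name, *nhr-137*, *nhr-154*, *nhr-183*, *nhr-188*, *nhr-212* and *nhr-286*, and their positive direction was fixed by the list that names them. Their median log2 fold change was 0.30, and none was called. *nhr-154* had 3.18, 3.20 and 3.38 in wt and 3.60, 3.68 and 3.56 in *dcap-1(rf)*, with separate groups and a log2 fold change of 0.36 (SE 0.08, limma adjusted p = 0.0995). The groups of *nhr-183* (0.38) and *nhr-212* (0.15) were separate too, and those of *nhr-137*, *nhr-188* and *nhr-286* overlapped. *sex-1*, a nuclear hormone receptor that reads the number of X chromosomes in sex determination and was the only one of 5 listed receptors outside the *nhr* names with a name here, had 5.00, 5.12 and 5.04 in wt and 5.13, 5.29 and 5.41 in *dcap-1(rf)*. Its groups were separate, with a log2 fold change of 0.22 (limma adjusted p = 0.337).

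Genes that work with or under the receptors were taken from lists of co-regulators, the dafachronic acid route that supplies a steroid ligand, targets of single receptors and other receptors. Of 67 genes in these 7 lists, 17 had a name, mostly through that same gene list. Their direction was therefore largely fixed in advance, and the list also favours genes that the study selected. Among the 17, 1 was upregulated and none was downregulated. The background of 1.62% given above is for genes not chosen this way, so the count cannot be read against it. No gene of the dafachronic acid route was named, *daf-9* and *daf-12* included. Among co-regulators the Mediator subunit *mdt-29* had a log2 fold change of 0.19, and among the moulting targets of NHR-23 and NHR-25 the kinase gene *nekl-3* had 0.18.

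The lipid targets of NHR-49, NHR-80 and NHR-66 had 4 of 14 genes with a name and none called. *fat-6*, a stearoyl-CoA desaturase gene, had 7.55, 7.42 and 7.88 in wt and 7.74, 8.08 and 7.98 in *dcap-1(rf)*, with overlapping groups and a log2 fold change of 0.31 (limma adjusted p = 0.372). *ech-1.1*, which encodes a beta-oxidation enzyme, had 1.74, 1.59 and 1.93 in wt and 2.20, 2.22 and 2.33 in *dcap-1(rf)*. Its groups were separate, and the log2 fold change was 0.49 (SE 0.10, limma adjusted p = 0.0646). The palmitoyl-CoA desaturase gene *fat-5* had 0.17 and the acyl-CoA synthetase gene *acs-11* 0.16.

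Of the targets tied to NHR-10, NHR-68 and NHR-114, which adjust propionate breakdown and the methionine cycle to vitamin B12, 3 of 14 had a name and none was called. *hach-1*, which encodes a hydrolase of the propionate shunt, had 6.30, 6.52 and 6.73 in wt and 6.01, 6.14 and 5.93 in *dcap-1(rf)*, with separate groups and a log2 fold change of -0.49 (SE 0.12, limma adjusted p = 0.122). *pmt-1*, a methyltransferase gene of phosphatidylcholine synthesis, had 6.38, 6.39 and 6.35 in wt and 6.66, 6.91 and 6.67 in *dcap-1(rf)*, which gave a log2 fold change of 0.38 (limma adjusted p = 0.111). The groups of *pmt-1* were separate too, in the opposite direction. *sams-1*, the S-adenosylmethionine synthetase gene, had a log2 fold change of 0.49 with mutant arrays from 5.59 to 6.45, the lowest of which lay among the wt arrays.

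The xenobiotic and immune targets of NHR-8 and NHR-86 had 7 of 10 genes with a name. *irg-5*, an infection response gene, was upregulated, from 4.38, 4.13 and 4.36 in wt to 5.37, 5.26 and 4.99 in *dcap-1(rf)*. The log2 fold change was 0.91 (SE 0.12, limma adjusted p = 0.011), with separate groups. Leaving out either wt replicate 1 or 2, or *dcap-1(rf)* replicate 2, ended the call. The cytochrome P450 genes *cyp-35A2*, *cyp-35A3*, *cyp-35A4* and *cyp-35C1* varied widely between replicates; *cyp-35A4*, with the largest log2 fold change of the list at 0.95, had 5.56, 3.90 and 6.18 in wt and 6.46, 5.32 and 6.72 in *dcap-1(rf)*, with overlapping groups and an SE of 0.59. *irg-4* had 0.49 and the transporter gene *pgp-3* 0.36, both with overlapping groups.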

How the data were processed

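From 150 ng total RNA per sample the authors prepared labelled cRNA and deposited log2 expression values made with RMA (R 3.3.0 in the submitters' processing notes) and the BrainArray gene-level chip description. RMA gives every array the same distribution of probe signals, so that a shift of all mRNA together would not be seen. The methods name surrogate variable analysis, but not the number of variables or whether the deposited log2 values carry it.

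The comparison took its filter, moderation and threshold from the methods but no surrogate variables, and may differ from the study's fit in that. It used limma 3.58.1 under R 4.3.3: a linear model with strain as its only term on all 17397 genes, removal of the 25% with the lowest average, empirical Bayes moderation (prior degrees of freedom 3.53) and Benjamini-Hochberg adjustment over the 13047 genes left, with an adjusted p under 0.05 as the threshold. The model was first tested on simulated data, with changes larger than that of any *nhr* gene in genes with averages above the median. That test does not bear on changes as small as those of the members. Each SD is over 3 arrays. No exact permutation test was run on single genes, since 3 against 3 samples allow no p under 0.10. Other software was Python 3.11.15 with numpy 2.4.6, pandas 2.3.3, scipy 1.17.1 and matplotlib 3.10.9.

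The members and lists were chosen with earlier results of these data known. Identifiers were paired with names through the name columns of the study's supplementary lists, and positions are those of RefSeq's WBcel235 annotation, matched by symbol. The genes to describe were any member called, up to 8 members at either extreme of the log2 fold change among those with separate groups, listed receptors with a known role, the 5 highest and 5 lowest averages, and the called or most extreme gene of each list. Others were picked after their values were seen. The fold changes and p-values in the supplementary lists are the authors' own comparison and were not used. No receptor sequence was analysed here.

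Results were recomputed without the filter, with the lowest 50% of genes removed, with a trended and robust prior variance, with 1 or 2 components of the residuals as covariates (a stand-in for surrogate variables), with arrays centred on their medians, with quantile normalization, with array weights, with replicate number entered as a blocking term, and with single arrays dropped in turn.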

Additional observations from a re-analysis of the deposited data

How the results depend on the processing

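The number of *nhr* genes called stayed at 0 except with 1 or with 2 components of the residuals as covariates, where it was 1 each time, and with an array left out, where it ran from 0 to 2; without *dcap-1(rf)* replicate 3 the 2 genes were *nhr-3* and *nhr-31*. The number of members higher in the mutant was 30 of 58 after removal of the lowest 50% of genes, where fewer genes were tested, and 48 to 56 with an array left out. The median log2 fold change of the family was 0.0348 with array weights and 0.0009 to 0.0430 with an array left out. Over all genes tested the number called was 328 with 1 component, 411 with 2 components and 84 to 306 with an array left out (the counts were 94 and 84 when wt replicate 1 or 2 was dropped, and 122 and 306 when *dcap-1(rf)* replicate 2 or 3 was).

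In the target lists, the lipid targets had 1 gene called with 1 component, with 2 components and with array weights, and 0 to 1 with an array left out. The propionate and vitamin B12 targets had 2 genes called with 2 components and 0 to 1 with an array left out, and the xenobiotic and immune targets 0 to 2 with an array left out. The direction of WBGene00003619 was not settled, at 0.0073 with the arrays centred, 0.0554 with array weights and -0.1505 to 0.1158 with an array left out. Likewise *nhr-49* ran from -0.0122 (without wt replicate 1) to 0.0453 and WBGene00003656 from -0.0590 (without wt replicate 3) to 0.2120 with an array left out. The cause of these differences was not tested. WBGene00003616, recomputed like the other described *nhr* genes outside the rule after the data were seen, turned from -0.3099 to 0.3018 without wt replicate 3, in a range from -0.7012 to 0.3018 with an array left out. Of the *nhr* genes recomputed singly under these alternatives, *nhr-3* and *nhr-31* changed their side of the threshold, and no gene beyond those given here changed its side or its direction.

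Same-numbered samples of the 2 strains had deviations from their group means that correlated at 0.05, 0.08 and 0.12 across all genes. There every sample correlated best with its own number. Across the *nhr* genes the same pairs gave 0.005, 0.13 and 0.32, and wt replicate 1 correlated best with mutant replicate 2, at 0.25. The numbers were not taken as pairs in the main comparison. With the replicate number as a block, 0 *nhr* genes and 246 of all genes were called, 50 members were higher and 13 had an unadjusted p under 0.05. The share of all genes at that p was not worked out for the block. The block changed no call among the *nhr* genes. The number of arrays limits the precision: with 3 a group, the median 95% interval of a member reached 0.25 to either side before any adjustment, and at the adjusted threshold a log2 fold change as large as 0.56 (*nhr-3*) was not called.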
